A study of Mus musculus with 6 samples.

Results

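The genes described here are 6 markers of brain cells: Ermn, Cldn11 and Cnp of mature myelin, Gpr17 of the precursor stage of the oligodendrocyte lineage, and Fcrls and Ly86 of microglia. They were taken by gene name from the list of called genes that the study deposited, and all 6 were found once each among its 637 rows. RNA of the mouse hippocampus was sequenced in C57BL/6 wild-type mice aged 56 days. The ischemia group held 3 samples, from mice with focal occlusion of the middle cerebral artery, a model of stroke that cuts off blood flow in a large forebrain artery. The sham group held 3 samples, from mice with a sham operation. Both groups are titled 2 h, without a statement of whether this counts the occlusion itself or the time since surgery. The labels do not say whether the samples of a group came from separate animals, so the p-values may reflect technical spread only. For each gene the study's table holds a mean of normalised reads in either group and no value per sample. The columns are headed M2 and S2, and the letters were taken as the initials of the 2 treatments, M for the artery occlusion and S for sham; all directions below depend on this.

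Oligodendrocytes are the cells that wrap axons of the central nervous system in myelin. They arise from proliferating precursors, which pass through a committed stage marked by the receptor Gpr17 before they turn on the genes of the myelin sheath, and Gpr17 is turned off again as the cells mature. Microglia are the resident macrophages of the brain, and in mice Fcrls is one of the genes that set them apart from macrophages of the blood. A hippocampal sample holds both cell types beside neurons, astrocytes and vessels. In such a bulk sample a change in the number of cells of a type and a change in the RNA per cell cannot be told apart.

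The myelin genes and the microglia genes were higher in ischemia and the precursor gene was lower. The 3 myelin genes rose by 1.34-fold to 1.39-fold, the 2 microglia genes by 1.47-fold and 1.53-fold, and Gpr17 was 1.42-fold lower, all in the authors' deposited table. At the authors' adjusted p of 0.05, 1.47% of the 28319 genes that their adjusted p-values imply were called higher and 0.784% lower, 2.25% in all. The 6 genes were picked from the called rows, so that all 6 passed is fixed by the choice. Relative to the median of the 366 listed genes that changed by less than 2-fold, which was 0.47 on the log2 scale, the direction of Cldn11 (-0.04) and Cnp (-0.06) flips and Ermn is at 0.0017. That median is 1 constant taken off every gene, it comes from called genes only, 192 higher and 174 lower, and which genes flip follows from the order of their fold changes.

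**Figure D1:**
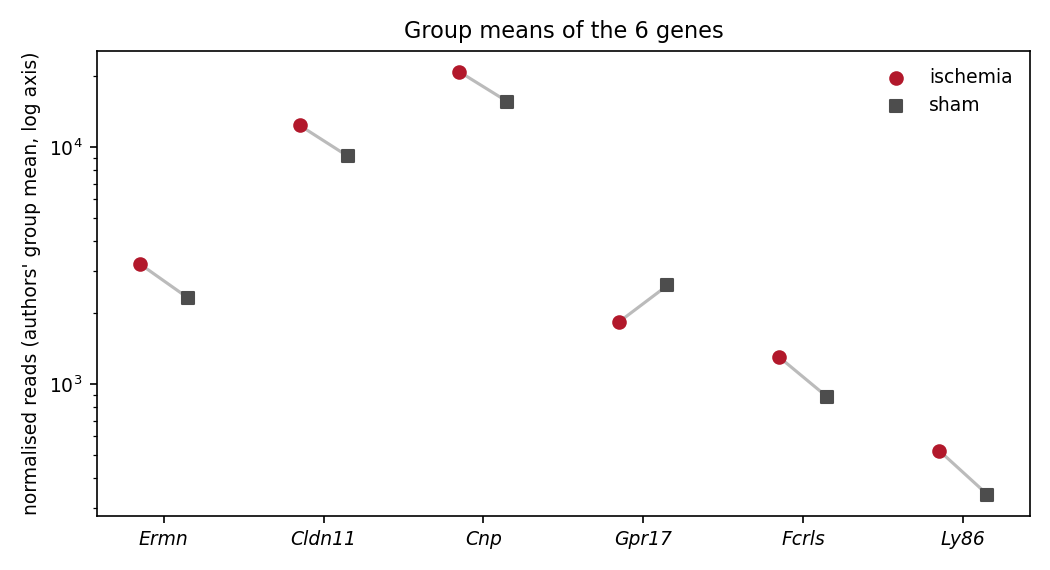
Group means of normalised reads for the 6 genes on a log axis, with ischemia as circles and sham as squares, from the authors' deposited table. The ischemia mean lies above the sham mean for Ermn, Cldn11, Cnp, Fcrls and Ly86 and below it for Gpr17. On the scale centred on the median of listed genes below 2-fold, Cldn11 and Cnp flip, which follows from the order of fold changes.

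Ermn encodes ermin, a protein that binds the actin cytoskeleton and appears late in oligodendrocyte maturation. It averaged 3214 normalised reads in ischemia and 2312 in sham in the authors' deposited table. Its log2 fold change was 0.47 with an approximate standard error of 0.14, and its adjusted p was 0.0401 in the authors' deposited table. The standard error is the deposited log2 fold change divided by the normal quantile of the deposited p-value, since the table holds no standard deviation. Cldn11 encodes claudin 11, the protein of the tight junctions that run through the myelin sheath. Its mean was 12338 normalised reads in ischemia and 9156 in sham in the authors' deposited table. It had a log2 fold change of 0.43 ± 0.13 (approximate SE) with an adjusted p of 0.0428 in the authors' deposited table. Cnp encodes CNPase, an enzyme of the cytoplasm-filled parts of myelin and a common stain for oligodendrocytes. It averaged 20733 normalised reads in ischemia and 15526 in sham in the authors' deposited table. Its log2 fold change was 0.42 ± 0.13 (approximate SE) with an adjusted p of 0.0472 in the authors' deposited table.

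The 3 myelin genes changed by nearly the same factor, and their log2 fold changes differed from each other by less than 1 approximate standard error. They differed far more in level. Per kilobase of exon, Cldn11 had 6598 normalised reads in ischemia and 4896 in sham, Cnp had 5697 in ischemia and 4267 in sham, and Ermn had 884 in ischemia and 636 in sham. Their rises were among the smallest that the study called. Of the 415 higher genes, 0 had a smaller log2 fold change than Cnp, 1 had a smaller one than Cldn11 and 9 had a smaller one than Ermn in the authors' deposited table. The median of the 415 was 2.10-fold. Among called higher genes whose sham mean lay within 2-fold of that of Cnp, the median over 26 genes was 1.56-fold. Since 0 of the 415 had a smaller rise than Cnp, a median above its rise was fixed. Genes of like abundance that were not called are absent from this comparison.

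Ermn, Cldn11 and Cnp were all called higher, and the 250 bases that precede their annotated starts are shown to compare them, with those of Fcrls and Ly86. RefSeq sequences of build GRCm38.p6 were at hand for 5 of the 6 genes, and a window of Gpr17 is not shown. Capitals mark matches on either strand to the SOX motif ACAAAG, the E-box CANNTG, the MYRF motif written as CTGGCAC or CTGGTAC, the PU.1 motif GAGGAA and the AP-1 motif TGANTCA, and no marked matches overlap.
The windows are chr2:58052865-58053114 on the minus strand for Ermn, chr3:31149670-31149919 on the plus strand for Cldn11, chr11:100574689-100574938 on the plus strand for Cnp, chr3:87263525-87263774 on the minus strand for Fcrls and chr13:37345095-37345344 on the plus strand for Ly86.
Ermn: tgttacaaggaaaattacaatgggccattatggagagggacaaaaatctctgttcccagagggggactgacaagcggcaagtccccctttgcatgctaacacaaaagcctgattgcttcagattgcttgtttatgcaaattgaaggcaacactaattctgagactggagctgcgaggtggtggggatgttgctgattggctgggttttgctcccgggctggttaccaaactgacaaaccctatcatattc
Cldn11: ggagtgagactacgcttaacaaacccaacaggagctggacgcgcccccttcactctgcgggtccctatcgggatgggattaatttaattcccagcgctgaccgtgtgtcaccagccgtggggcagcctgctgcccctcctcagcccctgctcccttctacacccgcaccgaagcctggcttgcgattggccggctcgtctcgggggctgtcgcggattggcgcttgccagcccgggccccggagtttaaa
Cnp: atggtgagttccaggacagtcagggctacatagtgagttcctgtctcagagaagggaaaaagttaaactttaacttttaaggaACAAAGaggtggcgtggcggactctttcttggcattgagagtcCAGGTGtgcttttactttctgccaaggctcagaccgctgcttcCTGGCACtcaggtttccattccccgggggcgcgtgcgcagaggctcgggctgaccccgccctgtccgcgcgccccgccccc
Fcrls: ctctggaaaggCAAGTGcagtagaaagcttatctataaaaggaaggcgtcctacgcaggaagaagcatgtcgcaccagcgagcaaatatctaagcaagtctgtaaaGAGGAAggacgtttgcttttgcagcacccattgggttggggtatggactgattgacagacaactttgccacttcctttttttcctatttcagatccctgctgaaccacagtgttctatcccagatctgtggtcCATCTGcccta
Ly86: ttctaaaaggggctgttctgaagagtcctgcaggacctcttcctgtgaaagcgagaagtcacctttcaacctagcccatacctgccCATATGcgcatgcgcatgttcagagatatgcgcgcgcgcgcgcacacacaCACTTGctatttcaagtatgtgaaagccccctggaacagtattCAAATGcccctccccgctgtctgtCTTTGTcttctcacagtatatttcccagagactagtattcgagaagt

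The windows of the 3 myelin genes had little in common in these letters. Cnp held 1 SOX match at 167 to 162 bases before the start, 1 E-box at 124 to 119 and 1 MYRF match, CTGGCAC, at 81 to 75. Ermn and Cldn11 held 0 matches to any of these motifs. SOX matches occur in 16.5%, E-boxes in 66.2% and CTGGCAC in 4.19% of all 32851 windows of this length, and CTGGTAC in 1.83%. Fcrls held 1 PU.1 match at 144 to 139 and 2 E-boxes, and Ly86 held 3 E-boxes and 1 SOX match at 47 to 42. PU.1 matches occur in 23.3% of all windows. AP-1 matches, in 6.75% of all windows, were found in 0 of the 5. The GC content was 63.6% for Cldn11, 57.2% for Cnp and 47.2% for Ermn, against a median of 52.4% over all windows. A match is a run of letters and not a measured binding site.

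Gpr17 encodes a G protein-coupled receptor of committed oligodendrocyte precursors that holds back their maturation. It averaged 1831 normalised reads in ischemia and 2603 in sham in the authors' deposited table. Its log2 fold change was -0.51 ± 0.14 (approximate SE), with an adjusted p of 0.0265 in the authors' deposited table. The fold was small among the 222 lower genes, of which 22 had a smaller one in the authors' deposited table. Among 76 lower genes with a sham mean within 2-fold of that of Gpr17, the median was 1.51-fold, and 16 of them had a smaller fold. Per kilobase of exon, Gpr17 had 353 normalised reads in ischemia and 501 in sham, below Ermn in both groups.

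Read against Gpr17, the mature genes were more abundant in ischemia than in sham. The ratio of Cnp to Gpr17 reads was 11.3 in ischemia and 5.96 in sham. The ratio of Cldn11 to Gpr17 was 6.74 in ischemia and 3.52 in sham, and that of Ermn to Gpr17 was 1.75 in ischemia and 0.888 in sham. Over the 3 myelin genes, taken as the mean of their log2 levels, the ratio to Gpr17 was 5.12 in ischemia and 2.65 in sham, a difference of 0.95 on the log2 scale. Its approximate standard error is 0.16 if the genes vary independently, which group means cannot show. No test was made of this difference, because it joins genes that were chosen for opposite calls.

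**Figure D2:**
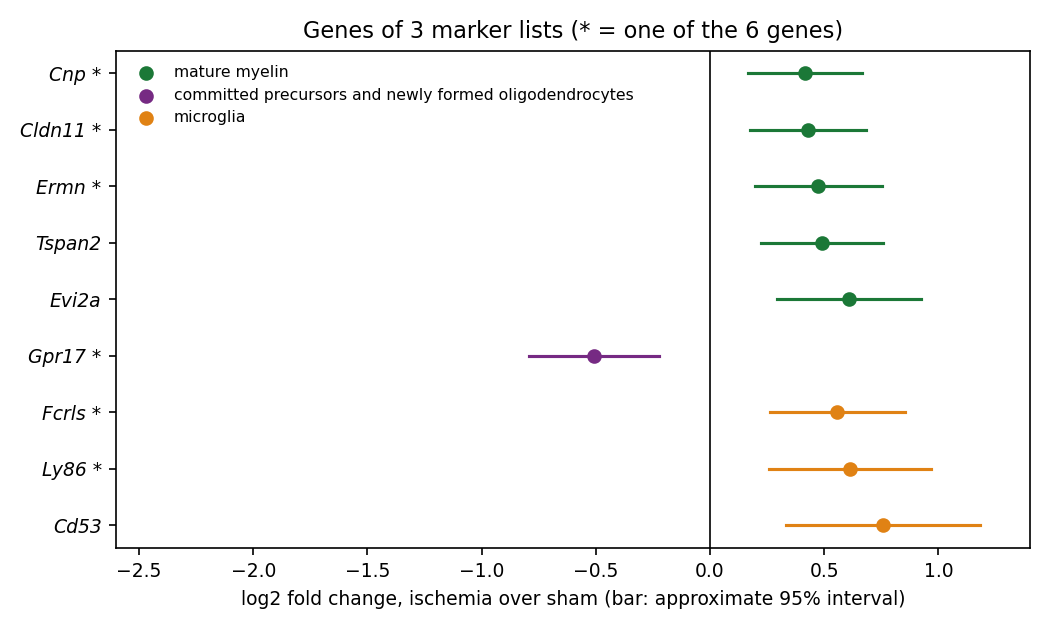
Log2 fold change of ischemia over sham for genes of the mature myelin, committed precursor and microglia lists, from the authors' deposited table; bars are approximate 95% intervals from the deposited p-values. The 5 myelin genes shown lie between 0.42 and 0.61, the 3 microglia genes between 0.56 and 0.76 and Gpr17 at -0.51. On the scale centred on the median of listed genes below 2-fold, Cldn11 and Cnp flip, which follows from the order of fold changes.

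Fcrls encodes an Fc receptor-like scavenger receptor that marks microglia in mice. It averaged 1294 normalised reads in ischemia and 879 in sham in the authors' deposited table. It had a log2 fold change of 0.56 ± 0.15 (approximate SE) with an adjusted p of 0.0153, the smallest of the 6 genes in the authors' deposited table. Ly86 encodes a secreted partner of the Toll-like receptor homologue Cd180 in myeloid cells. It averaged 522 normalised reads in ischemia and 341 in sham in the authors' deposited table. It had a log2 fold change of 0.61 ± 0.18 (approximate SE) with an adjusted p of 0.0367 in the authors' deposited table. Per kilobase of exon, Fcrls had 555 normalised reads in ischemia and 377 in sham, and Ly86 had 144 in ischemia and 93.9 in sham. Both rises were below the median of called higher genes of like abundance, which was 1.98-fold over 142 genes for Fcrls and 2.17-fold over 83 genes for Ly86.

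Against the microglia genes the myelin genes shifted by about 1 approximate standard error. The ratio of the 3 myelin genes to Fcrls and Ly86, on mean log2 levels, was 11.4 in ischemia and 12.6 in sham. The difference was -0.14 on the log2 scale, with an approximate standard error of 0.14 if the genes vary independently. The ratio of the microglia genes to Gpr17 was 0.449 in ischemia and 0.210 in sham, a difference of 1.09 on the log2 scale with an approximate standard error of 0.19 under the same assumption. In order of size, the log2 fold changes ran from Cnp, Cldn11 and Ermn through Fcrls to Ly86, and neighbours in this order differed by less than 1 approximate standard error. Gpr17 was chosen for the opposite call, so its distance from the other 5 was fixed by the choice of genes, as was the sign of each ratio to Gpr17.

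For the scarcest of the 6 genes, reads of single libraries could be separated from the group means, because each mean is a sum of whole counts multiplied by 3 fixed steps. The libraries are lettered A to C within a group by their relative depth and cannot be linked to the numbered replicates. The size factors, a measure of relative depth, were 1.205, 0.878 and 0.837 in ischemia and 1.2001, 1.11 and 0.874 in sham. For Ly86 in sham 1 solution exists, with 357, 378 and 336 reads, or 297, 341 and 384 normalised reads. In ischemia 3 solutions return the Ly86 mean. The solution with every library within 1.5-fold of the mean, a bound chosen after the data were seen, has 578, 542 and 392 reads, or 480, 617 and 469 normalised reads. In that solution Ly86 averaged 522 ± 82.8 normalised reads in ischemia and 341 ± 43.4 in sham (SD, n = 3 each), and the groups do not overlap. The bound picks the solution with the least spread, so these values are a description and no test of the groups is drawn from them. The mean log2 difference in it was 0.61. Each of the other solutions has 1 ischemia library below all sham libraries, at 103 in one and 286 in the other. They give mean log2 differences of 0.12 and 0.47.

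Fcrls could be separated in sham only. Of 10 solutions, 1 has every library within 1.5-fold of the mean, with 918, 1030 and 824 reads. This gives 765, 930 and 942 normalised reads, or 879 ± 99.2 (SD, n = 3). In ischemia 6 solutions lie within 1.5-fold, so no library values are given. The means of Gpr17, Ermn, Cldn11 and Cnp are too high for such a separation to be unique.

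**Figure D3:**
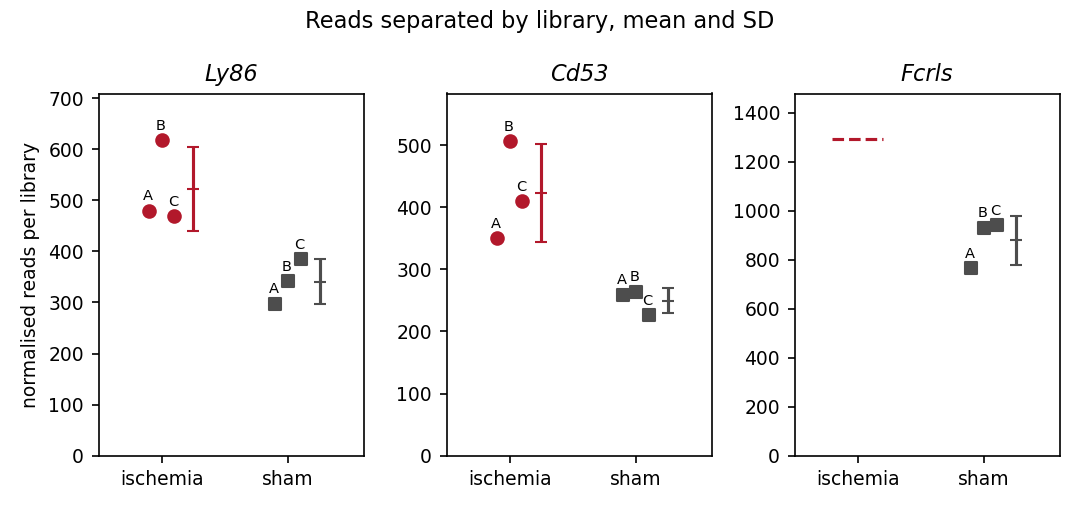
Normalised reads per library for Ly86, Cd53 and Fcrls, separated from the group means, with the mean and SD beside the points (3 libraries a group); the dashed line is the ischemia mean of Fcrls from the authors' deposited table. The points shown are the solutions with libraries close to their mean; in these, the Ly86 and Cd53 libraries of ischemia lie above those of sham, which holds in none of their other solutions.

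Beyond the 6 genes, the lists of cell type markers place them among related genes. All lists were chosen with earlier results of these data known, so their shares are a description and no test. Of 40 mature myelin genes, 6 were higher, 0 were lower and 34 are not listed, with a median of 1.39-fold against 1.58-fold over all 637 rows, both medians being of signed log2 values. The 6 are 15% of the list, beside the 1.47% of all genes called higher. Besides Ermn, Cldn11 and Cnp they include Tspan2 and Evi2a. Ermn, Cldn11 and Cnp were picked from the called rows, so their part of this share was fixed by the choice of genes. Tspan2, a tetraspanin of oligodendrocytes, had a log2 fold change of 0.49 (adjusted p = 0.0212) in the authors' deposited table. Evi2a, a membrane protein gene expressed in oligodendrocytes, had 847 normalised reads in ischemia and 555 in sham and a log2 fold change of 0.61 (adjusted p = 0.0111) in the authors' deposited table.

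Listed genes of the earlier stages of the lineage were few, and of all genes 2.25% were called in either direction. Of 20 genes of committed precursors and newly formed oligodendrocytes, Gpr17 was lower, 0 were higher and 19 are not listed. That is 5% of the list beside the 0.784% of all genes called lower. This share rests on 1 gene that was picked from the called rows, so it was fixed by the choice. Of 20 genes of oligodendrocyte precursors, among them the growth factor receptor gene Pdgfra and the proteoglycan gene Cspg4, 0 are listed. Of 20 transcription factors of the lineage, among them Olig1, Olig2, Sox10 and Myrf, 0 are listed. In lists of 20 genes, counts of 0 or 1 cannot be told apart from the share over all genes. A gene that is not listed was not found by symbol among the called genes, and its level and fold change are not known here. Of the 637 rows, 581 carry a gene symbol, and a called gene without one could not be matched.

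Of 30 microglia genes, 3 were higher, 0 were lower and 27 are not listed. They make up 10% of the list beside the 1.47% of all genes called higher, and their median was 1.53-fold. Fcrls and Ly86 were picked from the called rows, so their part of this share was fixed by the choice of genes. The third is Cd53, a tetraspanin of leukocytes and microglia, with 422 normalised reads in ischemia and 250 in sham, a log2 fold change of 0.76 and an adjusted p of 0.0274 in the authors' deposited table. Of 7 solutions for its ischemia mean, 1 has every library within 1.5-fold of the mean, at 350, 507 and 410 normalised reads. The sham mean has 1 solution, at 259, 264 and 226 normalised reads. The groups do not overlap in that solution, which was kept for its small spread, and its mean log2 difference was 0.74. The other 6 solutions gave mean log2 differences between -0.32 and 0.53, so that in 1 of them the direction turns. The receptors Cx3cr1, P2ry12, Tmem119 and Csf1r, which are widely used to define microglia, are not among the listed genes.

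The listed genes of reactive microglia had larger fold changes than Fcrls and Ly86, a difference that was not tested. Of 20 such genes 5 were higher and 0 lower, with a median of 6.75-fold. They are 25% of the list beside the 1.47% of all genes called higher. This list too was chosen with earlier results known, so the share is no test. Among the 5, 3 have a mean over both groups of at least 50 normalised reads. The cytokine gene Il1b averaged 56.2 normalised reads in ischemia and 3.25 in sham (adjusted p = 0.00339) in the authors' deposited table. The chemokine gene Ccl3 averaged 168 normalised reads in ischemia and 8.09 in sham (adjusted p = 0.0498) in the authors' deposited table. The lipopolysaccharide co-receptor gene Cd14 was 6.75-fold higher, the sterol hydroxylase gene Ch25h 3.39-fold and the Toll-like receptor gene Tlr2 2.36-fold higher in the authors' deposited table. Summed over these 5 genes, the level was 1182 normalised reads in ischemia and 186 in sham, of which Cd14 had 807 and 120. Their sham means ran from 3.25 for Il1b to 120 for Cd14, below those of Fcrls and Ly86. Their log2 fold changes had approximate standard errors from 0.37 for Tlr2 to 1.34 for Ccl3. Those of Fcrls and Ly86 were 0.15 and 0.18. With errors as large as those of the 5 genes, a rise as small as that of Fcrls or Ly86 would not have been called. Only called genes are listed, so the larger fold changes of the 5 follow from the listing. Other cells can express the 5 genes as well, and the share of microglia in their values was not tested.

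**Figure D4:**
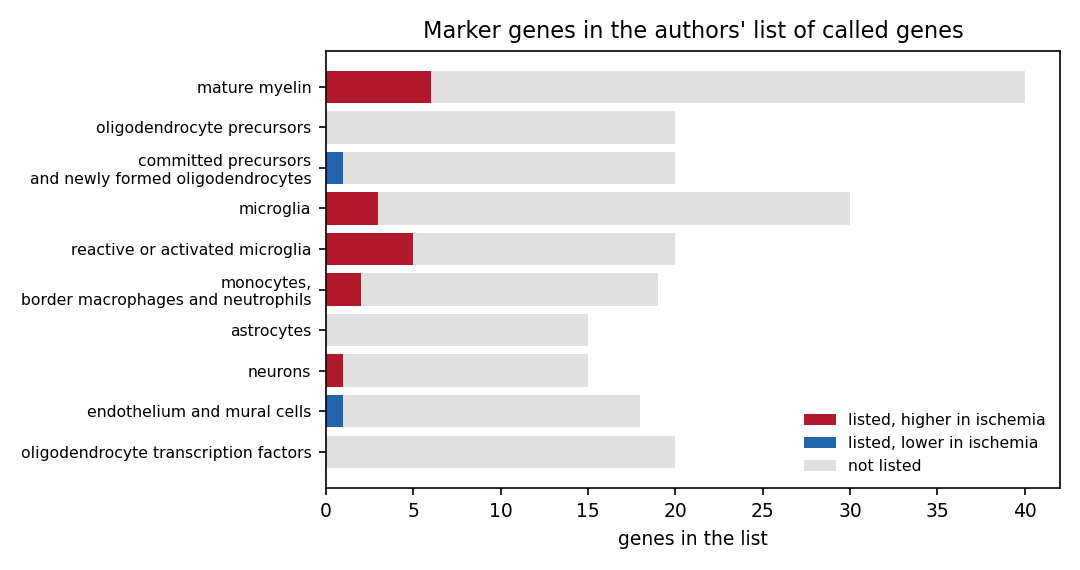
Number of genes of each marker list among the authors' called genes, split into higher and lower in ischemia and not listed. Of 40 mature myelin genes 6 were higher and of 30 microglia genes 3 were higher. Gpr17 was the 1 listed gene of 20 committed precursor genes. On the scale centred on the median of listed genes below 2-fold, Cldn11 and Cnp flip, which follows from the order of fold changes. The counts include Ermn, Cldn11, Cnp, Fcrls, Ly86 and Gpr17, which were picked from the called genes. The lists were chosen with earlier results of these data known.

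Markers of other cells that such a sample can hold were listed in small numbers. The neutrophil genes S100a8 and S100a9 were higher, 10.5% of 19 genes of monocytes, border macrophages and neutrophils, beside 1.47% of all genes. Together they had 131 normalised reads in ischemia and 15.1 in sham. These lists were also chosen with earlier results known, so their shares are a description only. Of 15 neuronal genes 1 (6.67%) was higher, the neurofilament gene Nefl, at 22303 normalised reads in ischemia and 13925 in sham in the authors' deposited table. Sox18, an endothelial transcription factor, was the listed 1 of 18 endothelial and mural genes (5.56%, beside 0.784% of all genes called lower), lower by 2.16-fold in the authors' deposited table. Among 15 astrocyte genes, 0 are listed. The part of these other cells in the values of the 6 genes was not tested, and markers that define the hippocampus could not be checked, since they would be listed only if called.

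Some of the 6 genes share exon sequence with a neighbour on the opposite strand in the GENCODE M21 annotation. Ermn overlaps Galnt5 over 237 bases, 6.52% of its exon length. Cnp overlaps Dnajc7 over 154 bases (4.23%) and Gpr17 overlaps Lims2 over 188 bases (3.62%). None of the 3 neighbours is listed. Cldn11, Fcrls and Ly86 have 0 overlapping exons there. Nefl, named above, shares 1108 bases (32.8% of its exon length) with Nefm on the opposite strand, and Nefm is itself listed. Whether strand was used in counting is not stated in the sources at hand, so reads of these pairs may be mixed over those bases.

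The listed genes nearest to each of the 6 in both group means, by distance on the log2 scale over the 2 groups, were found for comparison. Nearest to Ermn was Tmem88b, at a distance of 0.022, with 3262 normalised reads in ischemia and 2313 in sham, and then Tor1aip2 at 0.15. Nearest to Cldn11 were Clcn3 (0.077) and Dstn (0.18), and nearest to Cnp were Nefl (0.19) and Slc25a3 (0.24). Nearest to Gpr17 were Zfp236 (0.046) and Rtn4r (0.060). Nearest to Fcrls were Snhg8 (0.034) and Abt1 (0.063), and nearest to Ly86 were Nectin2 (0.12) and Acer2 (0.15). With 2 group means, such closeness says only that a level and a fold are alike.

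**Figure D5:**
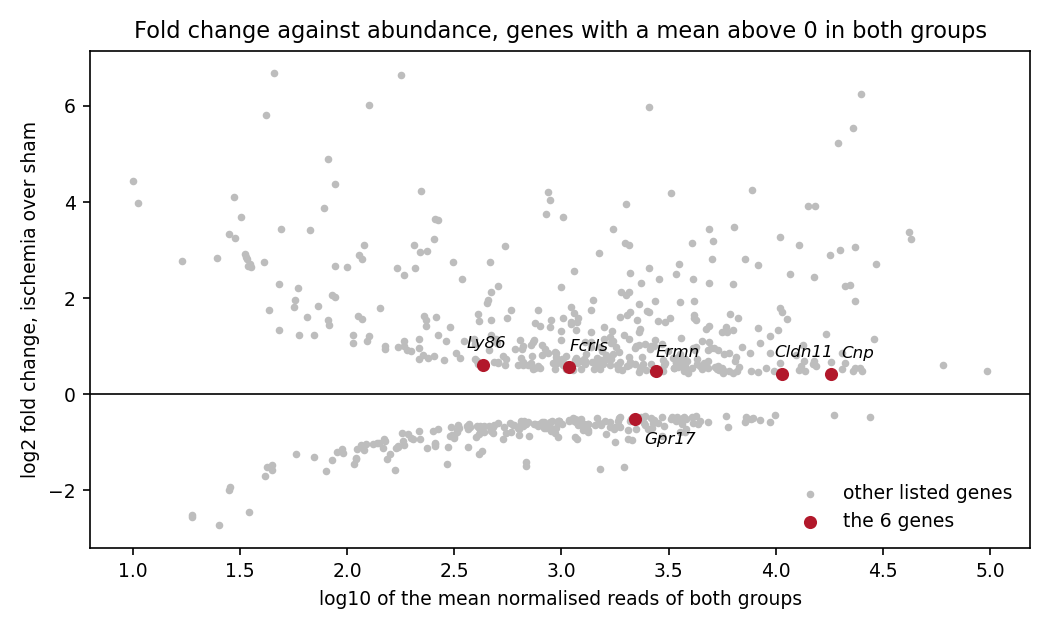
Log2 fold change of ischemia over sham against the log10 mean of both groups for all listed genes with a mean above 0 in each group, from the authors' deposited table, with the 6 genes in red. Cnp, Cldn11 and Ermn lie at the inner edge of the higher genes. Of the higher genes, 50 have a smaller fold than Fcrls and 75 a smaller one than Ly86. Of the lower genes, 22 have a smaller fold than Gpr17. On the scale centred on the median of listed genes below 2-fold, Cldn11 and Cnp flip, which follows from the order of fold changes.

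By p-value the 6 genes lie in the later part of the list. Ranked from the smallest p of 637, Fcrls stood at 404, Gpr17 at 489, Ly86 at 559, Ermn at 580, Cldn11 at 592 and Cnp at 616. The genes with a symbol just inside the threshold were Usp49, Ccl3, Rnf219, Cd24a and Edil3, with adjusted p-values between 0.0497 and 0.0499 in the authors' deposited table. At an adjusted p of at most 0.045, which 2.13% of all genes pass, 5 of the 6 are left, without Cnp. At 0.03, passed by 1.86%, Fcrls and Gpr17 are left, and at 0.01, passed by 1.27%, 0 of the 6 are left.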

How the data were processed

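RNA of mouse hippocampus was sequenced in 6 samples, 3 of ischemia and 3 of sham, after Trizol extraction and Illumina library preparation, per the labels' protocols. Bowtie 0.12.2 and build mm8 are named without a role, per the submitters' processing notes, while the gene identifiers of 612 of 637 rows in the deposited table are those of the Ensembl BALB/cJ annotation. How reads were counted, scaled and tested is not stated in those sources. For called genes only, the authors deposited a mean read signal per gene and group (normalised reads). They also deposited the log2 fold change and the p-value of each gene, raw and adjusted. The deposited log2 fold change equals the log2 ratio of the 2 deposited means to within 5.0e-05. As 0 columns hold values per sample, the planned limma fit was not run, and the depth of the libraries is unknown.

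The number of genes tested was inferred by recomputing Benjamini-Hochberg values: with 28319 genes, 636 of 637 rows matched within their printed digits. Steps of single libraries were found by lattice reduction and refined over 134 ischemia and 187 sham means of at most 450 with 1 solution; a solution must return the mean to 0.6 units of the final digit, allowing for error in the steps. The separation and the search were tested on simulated data. The simulated libraries had little spread beyond counting error, so they cannot show that a solution within 1.5-fold of the mean is the true one. Intervals from a single library would cover counting error only, and none is given. Exon lengths and overlaps are from GENCODE M21 by symbol, and no gene coordinates are given beyond the RefSeq windows, because the builds differ.

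The 6 genes and the 10 lists, with 206 genes, were chosen with earlier results of these data known. Named genes are the 6, every listed gene of the oligodendrocyte and microglia lists, up to 4 listed genes of each other list, the 2 nearest rows per gene and the 5 rows at the threshold; 1 gene that the rule names is not reported here. Python 3.11.15, numpy 2.4.6, scipy 1.17.1, pandas 2.3.3, sympy 1.14.0 and matplotlib 3.10.9 were used.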

Additional observations from a re-analysis of the deposited data

How the results depend on the processing

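No paired analysis was possible because the file gives group means and the separated libraries carry no replicate number. At an adjusted p of at most 0.01, 0 of the 6 genes, 0 mature myelin genes, 0 microglia genes and 0 committed precursor genes are left, with 263 higher and 98 lower genes in all; at 0.03, a threshold chosen after the data were seen, 2 of the 6 are left (Fcrls and Gpr17). Requiring 0.5 or more on the absolute log2 scale leaves 1 mature myelin gene, Evi2a. Centring on the 366 listed genes below 2-fold turned the log2 fold change of Cldn11 to -0.043 and that of Cnp to -0.056, and left Ermn at 0.0017, Fcrls at 0.08, Ly86 at 0.14 and Gpr17 at -0.98; all of these genes are called and 192 of them were higher, so the centre itself is above 0. Pseudocounts of 1 and 10 moved the 6 log2 fold changes by at most 0.014. The ratio of myelin to microglia genes kept its direction under both pseudocounts and under sums of linear means. That of myelin to Gpr17 did so too, but its sign was fixed by the choice of genes. Both pseudocounts were small beside the group means, so they could scarcely move either ratio. Without 1 library at a time, Ly86 lay between 0.48 and 0.71 and Fcrls, without a sham library, between 0.47 and 0.61 on the log2 scale, in the solutions of least spread only. Over all 3 solutions for its ischemia mean, Ly86 lay between -0.14 and 1.10 without 1 ischemia library, so its direction turns in 1 of them. Over all 10 for its sham mean, Fcrls lay between 0.013 and 3.22 without 1 sham library. Of the 5 genes of reactive microglia, 3 are left at a mean of at least 50 and 1 at an adjusted p of at most 0.01. With group means alone, the spread between samples of Ermn, Cldn11, Cnp and Gpr17 is not known.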
